A study of Rattus norvegicus with 4 samples.

Results

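The genes described here encode enzymes that build, extend, sialylate, fucosylate and sulfate the sugar chains of glycoproteins, with the mucins of the colon among their substrates. They were chosen by name: every measured transcript whose RefSeq gene symbol starts with Galnt, Gcnt, B3gnt, B3galt, B4galt, B4galnt, St3gal, St6gal, St8sia, Fut, Gal3st, Chst or Ndst. This gave 43 genes, 1 row each, of 6968 named genes and 18350 measured rows. Another 11 genes of these families have a row that is blank on all 4 arrays (B3gntl1, Chst3, Chst7, Chst10, Fut7, Galnt13, Galnt14, Galntl5, St6galnac3, St8sia2 and St8sia4), and the other 54 symbols of these families in the RefSeq gene table had no row by name. The rule is wider than mucins. By textbook knowledge 14 of the 43 genes act mainly on other products, such as heparan or chondroitin sulfate, gangliosides or the core of N-glycans. The other 29 are kept together as the mucin-type part, although some of them, such as St6gal1, are known mainly from N-glycans.

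Colon RNA of 2 control rats and 2 rats of the MSCT group was hybridized to one-color NimbleGen arrays, 1 array per rat. All rats were male Sprague Dawley rats, and their age is not given in the sources used here. In the MSCT group, colitis was induced with TNBS (2,4,6-trinitrobenzene sulfonic acid) in ethanol, a hapten that causes inflammation of the bowel wall, and commercial mesenchymal stem cells carrying green fluorescent protein were infused into the tail vein a day later. The control rats received no cells. The paper and the design text call them IBD controls, while the sample descriptions call them normal rats, so whether they had TNBS colitis is not settled, and the difference between the groups is that of colitis with cells from 1 of these 2 kinds of control. The paper also gives different days for the chips in its Methods and Results. The values are linear intensities as deposited, used here as log2 values, so a difference of 1 is a 2-fold difference. Each group has 2 arrays, and their number limits the precision of every value.

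Mucus of the colon is a gel of mucins, proteins whose serine and threonine residues carry dense O-linked chains. The Galnt enzymes place the first sugar, N-acetylgalactosamine. C1galt1 or its relatives then build a core, the Gcnt enzymes add branches, B3gnt and B4galt enzymes lengthen them, and fucose, sialic acid and sulfate cap the ends. Goblet cells make most of this mucus in the colon, and several of the same enzymes also act in other epithelial cells, leukocytes, neurons and connective tissue. In pieces of whole tissue, more cells of a type and more RNA per cell cannot be told apart.

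The arrays were similar in overall signal. Their median intensities were 883 and 893 in the control rats against 848 and 882 in the MSCT rats, and over all rows Pearson's r was 0.953 between the control arrays, 0.964 between the MSCT arrays and 0.934 to 0.959 between arrays of different groups. The highest of these was that of control replicate 2 with MSCT replicate 2, above the r between the control arrays. Of 14 epithelial genes, 12 had a row with values, which alone does not show expression. Epcam was between 13.91 and 14.09 on the 4 arrays and Krt20 between 14.16 and 14.59 on the log2 scale, where the array medians were between 9.73 and 9.80.

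Of the 43 genes, 30 had a higher mean in the MSCT group and 13 a lower one. This is 69.8% higher, where 48% of all rows and 55.8% of named genes were higher. Their median difference was 0.31 on the log2 scale, against -0.02 over all rows and 0.05 over named genes. In 26 genes every array of one group lay above every array of the other. In 21 of these the MSCT arrays were higher (48.8%, against 21.3% of all rows and 27.6% of named genes), and in 5 they were lower (11.6%, against 24.5% and 20.2%). Among the 29 genes of the mucin-type part the median difference was 0.34, with 22 genes higher. Among the 14 with another main product it was 0.09, with 8 higher. The difference between these parts was not tested.

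The paper screened for p under 0.05 together with more than 2-fold change, and this screen was applied here to unadjusted p-values from limma, which pools information on the variance across rows. It was passed by 5 of the 43 genes. Higher in the MSCT group were Gcnt3, Fut9, Galnt3 and Chst1 (9.30% of the genes, against 2.12% of all rows and 3.13% of named genes). Lower was Ndst1 (2.33%, against 2.51% and 1.78%). An unadjusted limma p under 0.05 was found for 8 of the 43 genes with higher and 3 with lower values, where 4.8% and 7.17% of all rows had one. Of the 6968 named genes, 475 had one with higher and 379 with lower values. None of the 43 genes, and 0% of all rows, passed an adjusted p of 0.05 by limma after Benjamini-Hochberg adjustment over all rows. The paper states no test for the arrays. A plain t-test of the group means, with equal variances assumed, was also run. It is called the methods' t-test here, because the one-way analysis of variance in the paper's Methods amounts to it for a pair of groups. The paper itself does not name it. By this test the screen was passed by 2 of the genes, Gcnt3 and Galnt3, and by 2.11% of all rows. These 2 were also the genes that passed the limma screen with any 1 of the 4 arrays left out. The count of 5 fell or rose in most fits with an array left out, where 1 group has a single array.

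**Figure D1:**
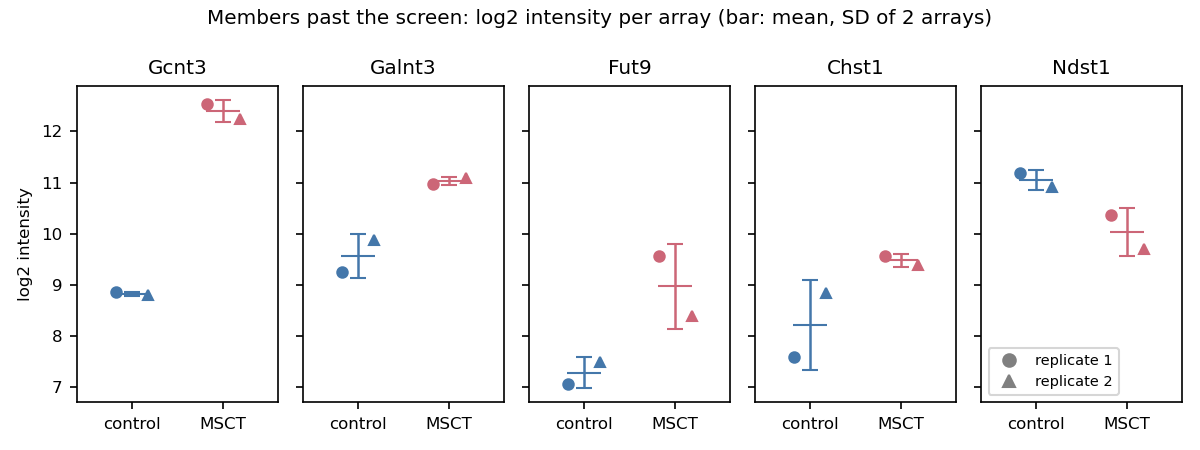
Log2 intensity of the 5 genes past the screen on each array, with circles for replicate 1 and triangles for replicate 2. Horizontal bars are group means and error bars are the SD of 2 arrays. Gcnt3 lies near 8.8 on both control arrays and above 12 on both MSCT arrays, while the arrays of 1 group of Galnt3, Fut9, Chst1 and Ndst1 lie 0.61 to 1.24 apart.

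The branching enzymes differed among themselves. Gcnt3 (NM_173312), the mucin-type enzyme that makes branched cores and is made in mucus-secreting epithelia, had an intensity of 462 and 446 in the control rats against 5974 and 4856 in the MSCT rats. On the log2 scale these are 8.85 and 8.80 against 12.54 and 12.25. Both MSCT arrays lay far above both control arrays, and the gap between groups was many times the gap within either. The difference was 3.57 (standard error 0.21, 95% interval 3.02 to 4.12, limma adjusted p = 0.257 over all rows), an 11.9-fold difference, and it lay between 3.42 and 3.72 when single arrays were left out. Gcnt1 (NM_022276), the related enzyme known from leukocytes, was at 8.30 and 8.59 in the control rats against 8.97 and 8.61 in the MSCT rats. The groups just failed to overlap, and the difference of 0.35 had a 95% interval of -0.29 to 0.99. Gcnt2, which branches lactosamine chains into the I antigen, was at 9.78 and 9.52 against 9.76 and 9.74, with overlapping groups and a difference of 0.10 (interval -0.44 to 0.63).

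The Galnt enzymes, which start the chains, went both ways. Of 9 measured genes, 6 had higher and 3 lower means in the MSCT group, with a median of 0.28 and a range of -0.68 to 1.47. Galnt3 (NM_001015032) passed the screen. It was at 9.26 and 9.87 in the control rats against 10.97 and 11.08 in the MSCT rats. The MSCT arrays lay close together, and control replicate 1 was the lowest array. The difference was 1.47 (standard error 0.28, limma adjusted p = 0.276), 2.76-fold, and between 1.16 and 1.77 with single arrays left out.

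Next to the screen lay Galnt7 and Galnt5, with an unadjusted p under 0.05 and under 2-fold. Galnt7 (NM_022926), which adds sugars to peptides that already carry some, was at 11.67 and 12.28 in the control rats against 12.74 and 12.84 in the MSCT rats. Its groups did not overlap, and most of the spread came from the control arrays (difference 0.82, standard error 0.27). Without control replicate 2 it was 1.12 and passed the screen. Galnt5 (NM_031796) was at 10.30 and 10.72 against 11.21 and 11.28, a difference of 0.74 (standard error 0.23). Galnt1, a broadly expressed isoform, was at 11.12 and 11.68 against 11.51 and 11.85, with overlapping groups and a difference of 0.28.

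In the other direction, Galnt18 (NM_001079884) was at 13.17 and 13.30 in the control rats against 12.51 and 12.61 in the MSCT rats. The arrays of each group lay close together and the MSCT arrays were lower. The difference was -0.68 (standard error 0.19), with an unadjusted limma p of 0.0193 (0.0141 for the methods' t-test), and it did not reach 2-fold. The other Galnt genes (Galnt4, Galnt10, Galnt11 and Galnt17) had differences between -0.45 and 0.39 and unadjusted p-values over 0.05 by limma. Galnt4, chosen after its values were seen, had the closest replicates, at 12.44 and 12.45 against 12.84 and 12.84. Its difference of 0.39 was small and steady, with a limma p of 0.0869 and 1.14e-04 by the methods' t-test, which takes the spread of the row's own 4 arrays alone.

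The start sites of the 2 genes that passed by both tests are shown for context, since the data give their level and not its control. The 250 bases before the start in the RefSeq promoter table of GRCr8 are written 5′ to 3′ on the gene's strand. Gcnt3 lies at chr8:79573558-79573807 and Galnt3 at chr3:71174324-71174573, both on the minus strand. Capitals mark matches, on either strand, to 5 short motifs. The ETS motif searched was AGGAAGT. The Cdx motif was TTTATTG. The E-box was spelled CACGTG. The TATA box was spelled TATAAA. The GC box was spelled GGGCGG. None of the motifs contains another.
Gcnt3: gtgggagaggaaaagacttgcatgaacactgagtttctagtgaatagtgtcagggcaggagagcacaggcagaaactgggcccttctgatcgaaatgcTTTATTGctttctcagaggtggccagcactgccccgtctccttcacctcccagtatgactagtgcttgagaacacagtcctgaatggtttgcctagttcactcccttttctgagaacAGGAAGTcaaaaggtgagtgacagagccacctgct
Galnt3: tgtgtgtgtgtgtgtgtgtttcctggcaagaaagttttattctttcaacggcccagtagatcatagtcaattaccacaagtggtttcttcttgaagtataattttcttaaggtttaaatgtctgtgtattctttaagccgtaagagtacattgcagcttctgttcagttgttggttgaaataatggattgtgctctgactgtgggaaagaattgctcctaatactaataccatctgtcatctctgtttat

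The Gcnt3 window holds the ETS letters, which begin 35 bases before the start, and the Cdx letters, which begin 152 bases before it. These motifs were chosen after the Gcnt3 window had been read, so the match is a description only. The Galnt3 window holds none of the 5 motifs. Of the 43 genes, 33 have a window in the table. Gcnt3 was the only one of these with the ETS letters, found in 6.99% of all 27457 windows, and the only one with the Cdx letters, found in 4.08%. The GC box was found in 15 of the 33 windows and in 32.4% of all windows. The E-box was found in 3 of the 33 windows (5.79% of all), and the TATA box in 1 (13.1% of all).

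**Figure D2:**
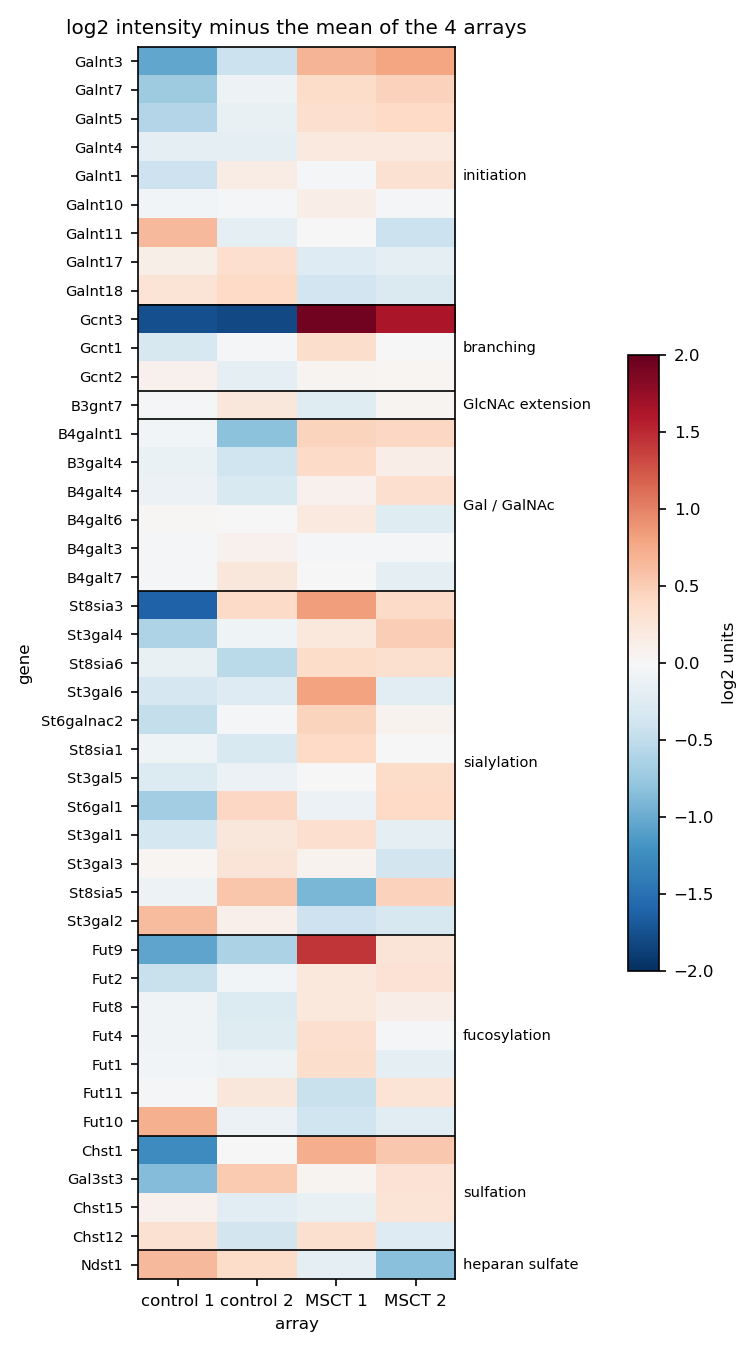
Log2 intensity of each of the 43 genes on each array, minus the gene's own mean over the 4 arrays, grouped by the step the enzyme takes. Red is above and blue below the gene's mean, and the scale ends at 2 log2 units. In 21 rows both control cells lie below both MSCT cells, with Gcnt3 the strongest, while Galnt18, St3gal2 and Ndst1 change the other way.

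Among the B3gnt, B3galt, B4galt and B4galnt enzymes, differences ranged from -0.19 to 0.87. Of these, B4galnt1, B3galt4, B4galt6 and B4galt7 are among the genes counted as having another main product. B3gnt7 (NM_001012134), which adds N-acetylglucosamine to growing chains, was at 11.43 and 11.70 in the control rats against 11.23 and 11.53 in the MSCT rats. Its groups overlapped (difference -0.19, 95% interval -0.79 to 0.41). Of 6 galactosyl- and N-acetylgalactosaminyltransferases, 3 were higher and 3 lower, with a median of 0.19 and none past the screen. B4galnt1 (NM_022860), a ganglioside synthase, came nearest to it, at 8.48 and 7.71 against 8.98 and 8.95. Control replicate 2 was the low array, and without control replicate 1 the difference moved from 0.87 (standard error 0.32) to 1.25 and passed the screen. The other 5 (B3galt4, B4galt3, B4galt4, B4galt6 and B4galt7) had differences from -0.19 to 0.53.

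Of 12 sialyltransferases, 9 had higher and 3 lower means in the MSCT group. Their median difference was 0.39, and none passed the screen. The groups did not overlap in 6 genes with higher MSCT arrays (50%, against 21.3% of all rows). They also did not overlap in 1 gene with lower MSCT arrays (8.33%, against 24.5% of all rows). St3gal2 (NM_031695), which caps the core of O-linked chains and gangliosides, was the lower one, at 12.51 and 11.97 in the control rats against 11.45 and 11.54 in the MSCT rats. The difference was -0.75 (standard error 0.26), and without control replicate 2 it was -1.01 and passed the screen. St3gal1, which caps the same core, was at 11.93 and 12.51 against 12.62 and 12.09. These groups overlapped, and the difference of 0.14 ranged from -0.15 to 0.43 over the fits that omit an array.

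St3gal4 and St3gal6 cap lactosamine ends and help make sialyl Lewis structures. St3gal4 (NM_203337) was at 10.89 and 11.43 in the control rats against 11.71 and 11.99 in the MSCT rats, a difference of 0.69 with no overlap and a limma p of 0.0570. St3gal6 was at 7.78 and 7.86 against 8.92 and 7.90, so its difference of 0.59 came from MSCT replicate 1 alone, and it was 0.08 without that array and 1.10 without the other.

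St6galnac2, which adds sialic acid to the first sugar of the chain, was at 9.02 and 9.47 in the control rats against 9.94 and 9.57 in the MSCT rats, a difference of 0.51 with no overlap. St6gal1, which acts on N-glycans and is well known from B cells, was at 7.54 and 8.64 against 8.11 and 8.63. The control arrays lay further apart than the groups, and the difference of 0.28 had an interval of -0.91 to 1.47.

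The St8sia genes, which place sialic acid on sialic acid, mostly had dim rows. St8sia6 (NM_213624), which acts on O-linked chains, was at 6.67 and 6.27 in the control rats against 7.19 and 7.14 in the MSCT rats, a difference of 0.69 (standard error 0.23), with a limma p of 0.0330. St8sia3 was over 2-fold apart in the means, at 5.96 and 7.96 against 8.42 and 7.96. Control replicate 1 was the only array that stood off. The difference of 1.22 had a limma p of 0.153, and it was 0.22 without control replicate 1 and 2.23, past the screen, without control replicate 2. The remaining sialyltransferases (St3gal3, St3gal5, St8sia1 and St8sia5) had differences from -0.44 to 0.40. That of St8sia5 was 0.25 without MSCT replicate 1 and -1.13, past the screen, without MSCT replicate 2.

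Of 7 fucosyltransferases, 5 had higher and 2 lower means, with a median of 0.31. Fut9 (NM_053465), which makes Lewis x and is best known from brain and stomach, passed the screen. It was at 7.07 and 7.50 in the control rats against 9.56 and 8.39 in the MSCT rats. Both MSCT arrays lay above both control arrays, but they were 1.17 apart. The difference was 1.69 (standard error 0.46, limma adjusted p = 0.333), and without control replicate 1 it was 1.48 with a p of 0.0857, which did not pass. Its mean intensity was in the lower 25% of rows, where replicates of all rows were 0.54 apart in the median, against 0.15 in the brightest 25%.

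Fut2 (NM_031635), the secretor enzyme that adds fucose to the mucins of the gut, was at 13.17 and 13.55 in the control rats against 13.82 and 13.91 in the MSCT rats. The groups did not overlap, and the difference was 0.50 by limma, with an interval of -0.09 to 1.10 and a p of 0.0805. Fut1, which makes the same linkage and is better known from red cells, was at 11.45 and 11.40 against 11.86 and 11.32. The groups overlapped, with a difference of 0.16. Fut4, another enzyme of Lewis x, was at 12.79 and 12.61 against 13.19 and 12.84, a difference of 0.31 with no overlap. Fut8, which adds the core fucose of N-glycans, was at 12.27 and 12.07 against 12.56 and 12.48, a difference of 0.35 with no overlap. The more distant relative Fut10 was at 7.65 and 6.82 against 6.53 and 6.73, a difference of -0.60 with no overlap. It was -0.19 without control replicate 1 and -1.02, past the screen, without control replicate 2. Fut11 differed by -0.18, with overlapping groups.

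All 4 measured sulfotransferases of galactose, N-acetylglucosamine or chondroitin had higher means in the MSCT group, with a median of 0.23. Chst1 (NM_001011955), which places sulfate on galactose, passed the screen. It was at 7.59 and 8.83 in the control rats against 9.57 and 9.39 in the MSCT rats. The groups did not overlap, but the control arrays were 1.24 apart. The difference of 1.27 (standard error 0.46, limma adjusted p = 0.409) was 0.65 without control replicate 1 and 1.89 without control replicate 2, and it passed the screen only in the latter of the 4 fits with an array left out. Gal3st3, Chst12 and Chst15, the last pair chondroitin sulfate enzymes, had overlapping groups and differences from 0.07 to 0.34. That of Gal3st3 was -0.35 without control replicate 1 and 1.04, past the screen, without control replicate 2.

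Ndst1 (NM_024361) modifies heparan sulfate and not mucins, and it was the only gene of the 43 to pass the screen with lower values. It was at 11.18 and 10.90 in the control rats against 10.36 and 9.70 in the MSCT rats. The difference was -1.01 (standard error 0.30, limma adjusted p = 0.346), 2.02-fold, so it stood at the fold limit. With equal array medians it was -0.97 and did not pass, and of the fits with an array left out it passed only in that without MSCT replicate 1, where it was -1.34.

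**Figure D3:**
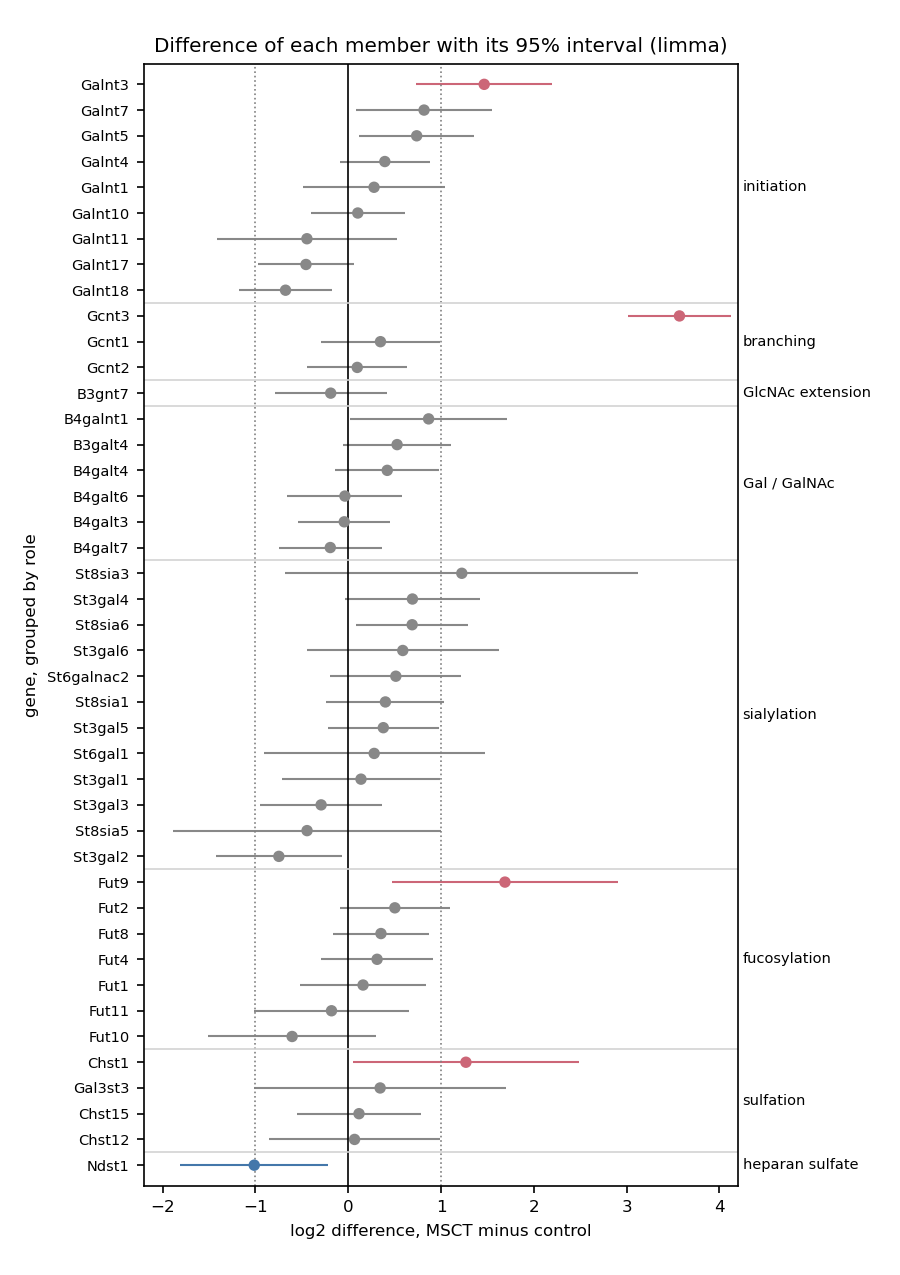
Log2 difference, MSCT minus control, of each of the 43 genes with its 95% interval by limma, grouped by role. Red and blue mark the 4 genes past the screen with higher and the 1 gene with lower values, and dotted lines mark 2-fold. Gcnt3 at 3.57 stands apart from every other gene, and the interval of most genes spans 0.

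The spread of these genes between replicates was close to that of all rows in the control rats and somewhat wider in the MSCT rats. The control arrays were 0.29 apart in the median gene and the MSCT arrays 0.30, against 0.31 and 0.24 over all rows. More than 1 apart were 4 genes on the control arrays (Chst1, Gal3st3, St6gal1 and St8sia3) and 3 in the MSCT rats (Fut9, St3gal6 and St8sia5). In all 4 of the former, control replicate 1 was the low array. Control replicate 1 was the lowest of the 4 arrays in 19 of the 43 genes, control replicate 2 in 11, and the MSCT arrays in 7 and 6. MSCT replicate 1 was the highest in 18 genes. With single arrays left out, 22 genes were higher and 9 lower in the MSCT group every time, and 12 changed sign. The same was not counted over all rows.

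Of 39 genes of the wider pathway outside these families (core synthesis, sugar donors, their transporters, other transferases and sialidases), 21 were measured by name. Their median difference was 0.15, with 15 higher and 6 lower, and 1 of 21 passed the screen, with higher values. This was Gmds (NM_001039606), the first enzyme in making the fucose donor, at 10.94 and 11.31 in the control rats against 12.43 and 12.48 in the MSCT rats. Its groups were well apart (difference 1.33, standard error 0.22, limma adjusted p = 0.260), and it also passed by the methods' t-test. C1galt1, which builds the common core, differed by 0.13 (standard error 0.19), and its chaperone C1galt1c1 by 0.22. Unadjusted p-values under 0.05 were found for 2 genes with higher values and 1 with lower ones: Slc35a3, a transporter of the N-acetylglucosamine donor, at 0.62, Gmds, and Pofut1, which fucosylates Notch receptors, at -0.87. Pofut1 and Slc35a3 were named after their values were seen.

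Genes of several cell types also differed between the groups, in both directions. Over all rows, 2.12% passed the screen with higher and 2.51% with lower values. Of 14 goblet cell genes, 6 were measured by name, and 4 passed the screen with higher values in the MSCT group. These were Zg16 (2.65), Foxa3 (1.94), Retnlb (1.52) and Tff3 (1.49), and the other 2, Klf4 and Reg4, differed by 0.03 and -0.56. The summed intensity of the 6, most of it that of Klf4, was 14.80 and 14.92 in the control rats against 15.50 and 15.52 in the MSCT rats (log2 of the sum). No gene of a list of 12 mucin backbones, Muc2 included, had a measured row by name, so the proteins that carry the chains were not analysed here. The 12 measured epithelial genes had a median difference of 0.18, none passed the screen, and their sum was 17.83 and 17.82 against 18.00 and 17.96. Of 9 measured genes of colon absorptive cells none passed (median 0.22, sums 16.56 and 16.72 against 16.83 and 16.78).

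Of 11 measured genes of small bowel absorptive cells, 9 had higher and 2 lower means, and 4 passed the screen with higher values (Fabp1 at 4.01, Fabp2 at 3.38, Alpi at 1.39 and Apob at 1.11), with a median of 0.95. The lower ones were Slc15a1 (-0.57) and Slc5a1 (-0.45, with no overlap), neither past the screen. Fabp1 was at 6.34 and 8.18 in the control rats against 11.40 and 11.14 in the MSCT rats. Fabp2 was at 6.56 and 9.02 against 11.43 and 10.91. In both, the control arrays lay far apart and control replicate 1 was the lowest array. By the methods' t-test only Fabp1 of this list passed. Over all rows, 2.12% passed the limma screen with higher values. The sums of the list were 13.84 and 14.16 against 14.44 and 14.50. Of 7 measured leukocyte genes, 4 passed the limma screen with higher values (Gzmb at 1.92, Nkg7 at 1.72, Cd68 at 1.29 and Csf1r at 1.00). Csf1r stood at the fold limit. Cd68 and Csf1r also passed by the methods' t-test, while Gzmb and Nkg7 did not. The other leukocyte genes, Cd3g (0.13), Cd4 (0.37) and Cd8a (0.006), had overlapping groups. The sums of the 7 genes were 11.63 and 11.60 against 12.58 and 12.76. Of 4 plasma cell genes, Mzb1 passed (1.26), with sums of 12.56 and 12.64 against 13.26 and 13.29. Of 10 enteric neuron genes, all had lower means in the MSCT group, and Elavl4 passed (-1.06), with a median of -0.56 and sums of 13.76 and 13.62 against 13.09 and 13.15.

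For connective tissue and muscle no gene passed the screen. None of 7 stromal genes passed (median 0.62, sums 15.77 and 15.29 against 15.91 and 16.02), and none of 5 smooth muscle genes did (median 0.02, sums 17.39 and 17.11 against 17.28 and 17.24). None of the measured genes of these lists was at 0. As reference, Actb differed by 0.12, B2m by -0.17, Gapdh by -0.19 and Hprt1 by 0.44. The part that a change in these cell types has in the values of the glycosylation genes was not tested.

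**Figure D4:**
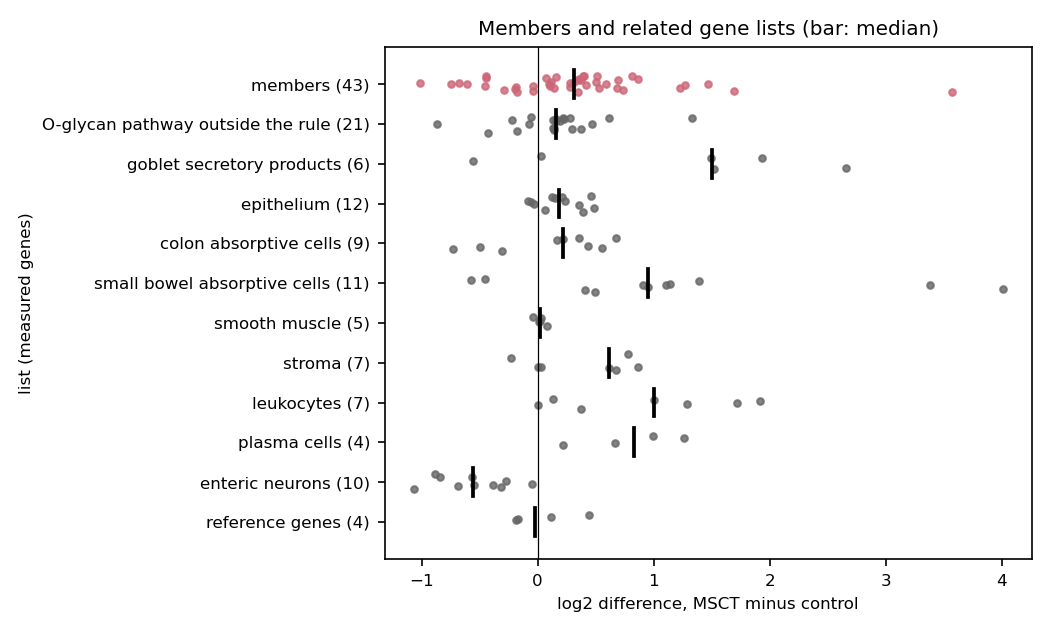
Log2 difference, MSCT minus control, of the 43 genes (members, red points) and of the genes of the related lists (grey points), with the median of each list as a black bar and the number of measured genes in brackets. The median of the 43 genes is 0.31, between that of the epithelial list (0.18) and that of the goblet list (1.51). The medians of the stroma, leukocyte, plasma cell and small bowel lists also lie above 0.31, with single genes below it, and all 10 enteric neuron genes lie below 0.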

How the data were processed

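RNA was labeled with Cy3 and hybridized to NimbleGen arrays by the authors, who scanned them with a GenePix scanner and used NimbleScan 2.6. The authors deposited 1 table of linear intensity per transcript and array. The submitters' processing notes name RMA, with no detail. The background correction, the scaling, the centring and the rule behind the 8070 blank rows are not given in the sources used here. Accessions were matched without version numbers to gene symbols of RefSeq (GRCr8), which named 7068 of 18350 measured rows but 58 of 11058 predicted transcripts. Log2 intensities without pseudocount, scaling or filter were fitted with limma 3.58.1 in R 4.3.3 (lmFit, eBayes) on all measured rows, with Benjamini-Hochberg adjustment over them. Each limma p-value rests on the variance shared between rows, because with 2 arrays in each group the smallest two-sided p of an exact permutation test is 0.333. The design text calls the rats of a group separate animals, so the spread within a group is that between 2 animals. The limma p-values draw on this spread and on that of all other rows, so they do not measure it alone. The test was also run on simulated data with independent noise and changes past the fold limit. That run does not bear on genes near the limit.

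The genes and lists were chosen with earlier results of these data known. Named with values were genes past the screen, a fixed set of enzymes known from the gut where measured, genes next to the screen, genes of the related lists past it (up to 5 in each direction) and 4 reference genes. Gcnt2, Galnt4, Fut10, Fut11, Gal3st3 and St8sia5 are given with values outside this rule, as are some list genes not past the screen. They are not among the 24 named genes whose alternative values are counted below. Alternatives were the methods' t-test, trend and robust variance, quantile normalization, equal array medians, filters on the dimmest 25% or 50% of rows, a replicate block, leaving out each array, a fold limit of 1.5, linear means, another row per gene and a narrower list. Tables and plots were made in Python 3.11.15 (pandas 2.3.3; matplotlib 3.10.9).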

Additional observations from a re-analysis of the deposited data

How the results depend on the processing

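The count of genes past the screen was 5 of 43. It was 2 by the methods' t-test, 3 of 23 without the lower 50% of rows, 11 with a fold limit of 1.5 and 3 to 9 with single arrays left out, with the highest count without control replicate 2. The same settings gave 388, 251 and 2019 rows over all rows, and leaving out single arrays gave 934 to 1565, against 850, with 1565 without control replicate 2 and 1503 without MSCT replicate 2. Groups did not overlap in 15 of 23 genes without the lower 50% of rows, and the share of all rows in that setting was not counted. The median difference was 0.35 with equal array medians, 0.26 from linear means and 0.23 to 0.35 with single arrays left out, lowest without control replicate 1. No gene had several rows, so another choice of row changed nothing. With single arrays left out, the difference of Fut1 ranged from -0.11 to 0.43, Galnt1 from -0.0038 to 0.56, St6gal1 from -0.27 to 0.83 and St3gal1 from -0.15 to 0.43. The causes were not tested. Of 275 alternative values of the 24 named genes, 253 kept direction and side of the screen, and 5 changed sign. Many of these values could not differ in sign. The methods' t-test, trend and robust variance, the filters and the replicate block leave the difference itself unchanged. Linear means were read with the p-value of the main fit. All 5 changes of sign came from fits with an array left out. No row passed an adjusted p in the default fit. With trend and robust variance 387 rows passed, among them Gcnt3, Galnt3 and Galnt18. Of the 13762 rows kept without the lower 25%, 4 passed, among them Gcnt3. Of the 9175 rows kept without the lower 50%, 247 passed, among them Gcnt3 and Galnt3. The adjusted p of Gcnt3 ranged from 7.39e-05 to 0.633 over the limma and t-test fits. Replicate numbers were shared by the groups, with a correlation of deviations of 0.23, and nothing says that they pair animals. With the replicate number as a replicate block, 5 genes and 971 rows passed. Of the 43 genes, 9 lie in the lower 25% of rows by intensity, where replicates differ most.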
